A study of Homo sapiens with 6 samples.

Results

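Transcripts for the proteins that cut introns out of messenger RNA were measured in T24, an established human bladder carcinoma line, given ox-LDL, the oxidized form of the low-density lipoprotein that carries cholesterol in blood. The genes were those whose symbol matched 1 of 6 patterns: SRSF followed by a digit, HNRNP, SF3A or SF3B followed by a digit, SNRP followed by a letter from A to G, PRPF followed by a digit, and U2AF. This took 69 probe sets of 68 genes out of 21448 probe sets tested, namely 11 SR protein genes, 23 hnRNP genes, 9 genes of the SF3 complexes, 12 genes of small nuclear ribonucleoprotein (snRNP) proteins, 10 PRPF genes and 4 probe sets for 3 U2AF genes. SRSF2, HNRNPK and PRPF8 were not analysed here. For all 6 samples 10% serum is recorded. All cells were kept without serum for 12 h. The ox-LDL group then received 20 µg/mL ox-LDL for 24 h and the control group received vehicle for 24 h, with 3 samples and 3 arrays in each. T24 is a single line grown in culture, and the labels do not state whether each sample came from its own culture. Each p-value therefore reflects the scatter among these 6 samples, and that scatter may be technical.

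Splicing is carried out by the spliceosome, which is built on each intron from RNA-protein particles named U1, U2, U4, U5 and U6 after their small nuclear RNAs. U1 pairs with the 5′ end of the intron, the U2AF dimer and then U2 mark its 3′ end and branch point, and the U4/U6.U5 particle joins before the complex is activated. SR proteins bind exons and mostly promote the use of nearby splice sites, whereas many hnRNPs bind introns or exons and repress them, so the balance of the 2 groups shifts alternative splicing. Levels are log2 values made by the authors with robust multi-array averaging (RMA), differences are ox-LDL minus vehicle on that log2 scale, and "rose" or "fell" is used for a Benjamini-Hochberg adjusted p under 0.05 over all 21448 probe sets in limma's moderated test. Precision is limited by having 3 arrays a group.

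A few properties of the arrays bear on all values. The third vehicle array stood apart, correlating with the other arrays at 0.979 to 0.988 across probe sets, while the lowest correlation among the other 5 arrays was 0.992. Its background probes with at least 20 G or C bases averaged 7.82, against 7.27 to 7.37 on the other 5 arrays. The median log2 value lay between 7.11 and 7.18 on all 6 arrays. One description field of the labels names siRNA against G9a in place of ox-LDL and control siRNA in place of vehicle, which the titles, sources and treatment fields contradict. The G9a gene, EHMT2, gave 8.34, 8.26 and 8.06 on the ox-LDL arrays and 8.00, 7.91 and 7.63 on the vehicle arrays, and its difference of 0.37 (SE 0.12) did not pass (limma adjusted p = 0.125). Of 12 epithelial and urothelial markers measured, the simple-epithelium keratins KRT7, KRT8 and KRT18 had group means between 11.89 and 12.25, while CDH1, UPK1B and UPK3A lay between 3.78 and 4.57, below the 95th percentile of the negative control probes (5.21). None of the 12, nor of the 21 fibroblast, endothelial and leukocyte markers measured, passed the limma test (1 and 4 had an unadjusted p under 0.05). Both group means were no higher than 5.21 in only 1 of 6 fibroblast, 2 of 6 endothelial and 4 of 9 leukocyte markers. COL1A2, a fibroblast marker, had group means of 8.39 with ox-LDL and 8.71 with vehicle.

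The snRNP genes held every call in the set. SNRPC, SNRPF and SNRPE rose with ox-LDL, by 1.48-fold, 1.45-fold and 1.44-fold. No SR, hnRNP, SF3, PRPF or U2AF probe set passed, and none of the 69 fell. The 3 rises are 4.35% of the 69 probe sets, against 3.48% of all tested probe sets called higher and 3.29% called lower, so the share over the whole set is near the background of the array. Within the snRNP family the share was 3 of 12. At an unadjusted p under 0.05 in limma, 20 of the 69 were higher and 1 was lower. Over all 21448 tested probe sets these counts were 2885 and 2713. Among the 10724 at or above the median level they were 2271 and 1480, with 20 and 1 among the 61 members there. The signs of the differences leaned one way: 56 of 69 differences (81.2%) were above 0, with a median of 0.14, against 44.9% and a median of -0.03 over all tested probe sets. Among probe sets at or above the median level, where 61 of the 69 lie, the shares were 83.6% of the members and 57.5% of all probe sets. In 35 of the 69 the 3 ox-LDL arrays all lay above the 3 vehicle arrays, against 19.1% of all tested probe sets and 31.5% of those at or above the median level, and in 5 they all lay below, against 17.7% of all. Under the selection the series describes, an unadjusted p of at most 0.001 with a fold of at least 1.5, none of the 69 was selected, against 2.31% of all probe sets selected in either direction.

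**Figure D1:**
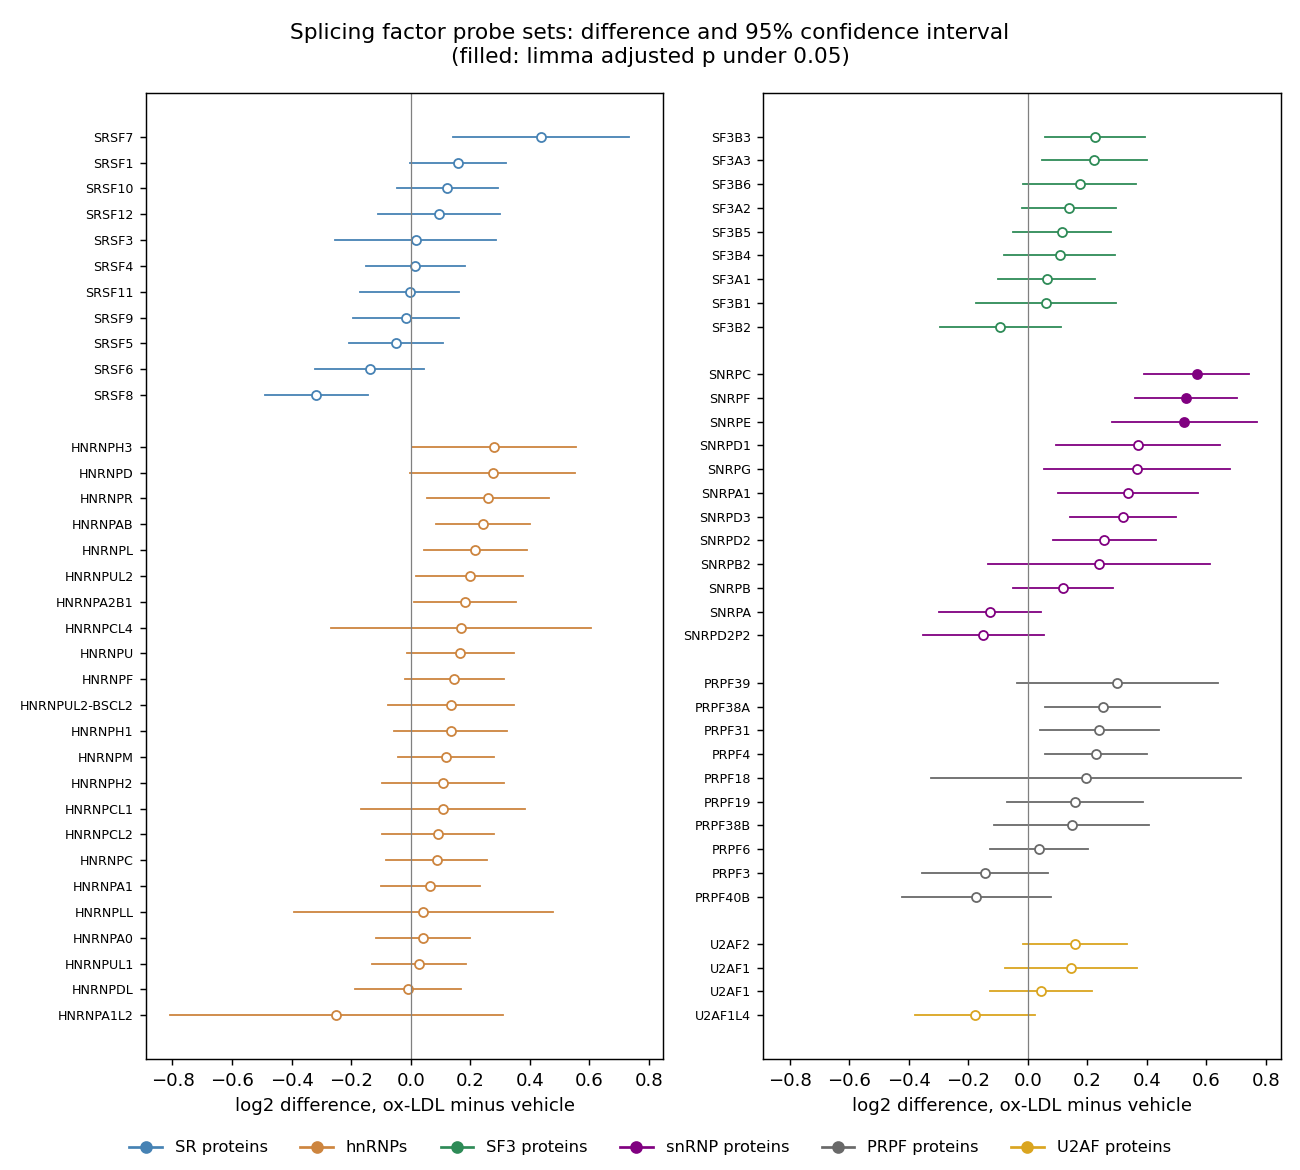
Difference between ox-LDL and vehicle for each of the 69 splicing factor probe sets (x axis, log2 scale, ox-LDL minus vehicle), by family, with 95% confidence intervals from limma; filled points passed the adjusted test. SNRPC, SNRPF and SNRPE are the 3 filled points, and U2AF1 appears as 2 probe sets.

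SNRPC encodes U1-C, the U1 protein that steadies the pairing of U1 with the 5′ splice site. Its log2 values were 8.16, 8.17 and 8.21 on the ox-LDL arrays and 7.70, 7.62 and 7.53 on the vehicle arrays. The 2 groups were clearly separated, and the spread within each was small beside the gap. The means were 8.18 ± 0.03 with ox-LDL and 7.62 ± 0.08 with vehicle (SD, n = 3 each), a difference of 0.57 (SE 0.07, 95% confidence interval 0.39 to 0.74, limma adjusted p = 0.00869).

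SNRPF and SNRPE encode Sm proteins, which close as a ring of 7 around the U1, U2, U4 and U5 RNAs. SNRPF had log2 values of 9.43, 9.40 and 9.30 on the ox-LDL arrays and 8.88, 8.84 and 8.81 on the vehicle arrays. Every ox-LDL array was above every vehicle array, and the difference was 0.53 (SE 0.07, 95% confidence interval 0.36 to 0.70, limma adjusted p = 0.00986). SNRPE had values of 10.86, 10.87 and 10.91 with ox-LDL and 10.50, 10.41 and 10.15 with vehicle. Here the ox-LDL arrays were nearly equal and the vehicle arrays were spread, with the third one lowest. The SNRPE difference was 0.53 (SE 0.10, 95% confidence interval 0.28 to 0.77, limma adjusted p = 0.0322), and 0.42 without vehicle replicate 3 (adjusted p = 0.0129).

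All 3 genes passed again without vehicle replicate 1 or without vehicle replicate 3, and other left-out arrays ended calls. SNRPC did not pass without any 1 ox-LDL array (adjusted p between 0.0548 and 0.0612), SNRPF without ox-LDL replicate 1 or 2 (0.0659 and 0.0666), and SNRPE without any 1 ox-LDL array (0.126 to 0.132) or vehicle replicate 2 (0.075), nor with the replicate number as a block (0.085) or without moderation of the variance (0.086). Their differences stayed within 0.42 to 0.61 over the 14 alternative fits.

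The other 5 Sm ring genes had differences above 0 without passing, and in all 7 of the ring the ox-LDL arrays lay above the vehicle arrays, against 19.1% of all probe sets and 31.5% of those at or above the median level. SNRPD3 came closest, with log2 values of 11.11, 11.19 and 11.07 on the ox-LDL arrays against 10.88, 10.75 and 10.79 on the vehicle arrays, a difference of 0.32 (SE 0.08, limma adjusted p = 0.0541). SNRPD2 had 9.15, 9.21 and 9.13 with ox-LDL and 8.86, 8.87 and 8.98 with vehicle, a difference of 0.26 (SE 0.07, adjusted p = 0.0867). Both groups were tight in these 2 genes. SNRPD1 had 9.83, 9.87 and 9.94 with ox-LDL and 9.65, 9.61 and 9.27 with vehicle, and SNRPG had 10.04, 10.12 and 10.10 with ox-LDL and 9.85, 9.88 and 9.42 with vehicle. In both the third vehicle array was far below the other 2, and the differences of 0.37 (SE 0.12) for SNRPD1 and 0.37 (SE 0.13) for SNRPG became 0.25 and 0.22 without it. SNRPB, which encodes the ring proteins B and B′, had 9.62, 9.66 and 9.67 with ox-LDL and 9.49, 9.60 and 9.51 with vehicle, the smallest difference of the ring at 0.12 (SE 0.07, adjusted p = 0.324). Without vehicle replicate 3, SNRPD3 (difference 0.31, adjusted p = 0.0448) and SNRPD2 (0.30, adjusted p = 0.0290) rose as well.

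The particle-specific snRNP proteins were not alike. SNRPA, the U1 protein that binds a stem-loop of U1 RNA, had log2 values of 10.68, 10.62 and 10.74 on the ox-LDL arrays and 10.80, 10.77 and 10.86 on the vehicle arrays. Its ox-LDL arrays all lay below its vehicle arrays, in contrast to SNRPC of the same particle, but the difference of -0.13 (SE 0.07) did not pass (limma adjusted p = 0.298). SNRPA1, the U2-A′ protein, had 10.96, 11.02 and 11.06 with ox-LDL and 10.76, 10.78 and 10.49 with vehicle, a difference of 0.34 (SE 0.10, adjusted p = 0.0949). SNRPB2, its U2-B″ partner, had 11.01, 10.97 and 11.04 with ox-LDL and 10.91, 11.00 and 10.40 with vehicle. The SNRPB2 groups overlapped, and the difference of 0.24 (SE 0.16) was 0.05 without vehicle replicate 3. The pseudogene SNRPD2P2, with a difference of -0.15, was no brighter than most negative control probes (both group means under 5.21).

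**Figure D2:**
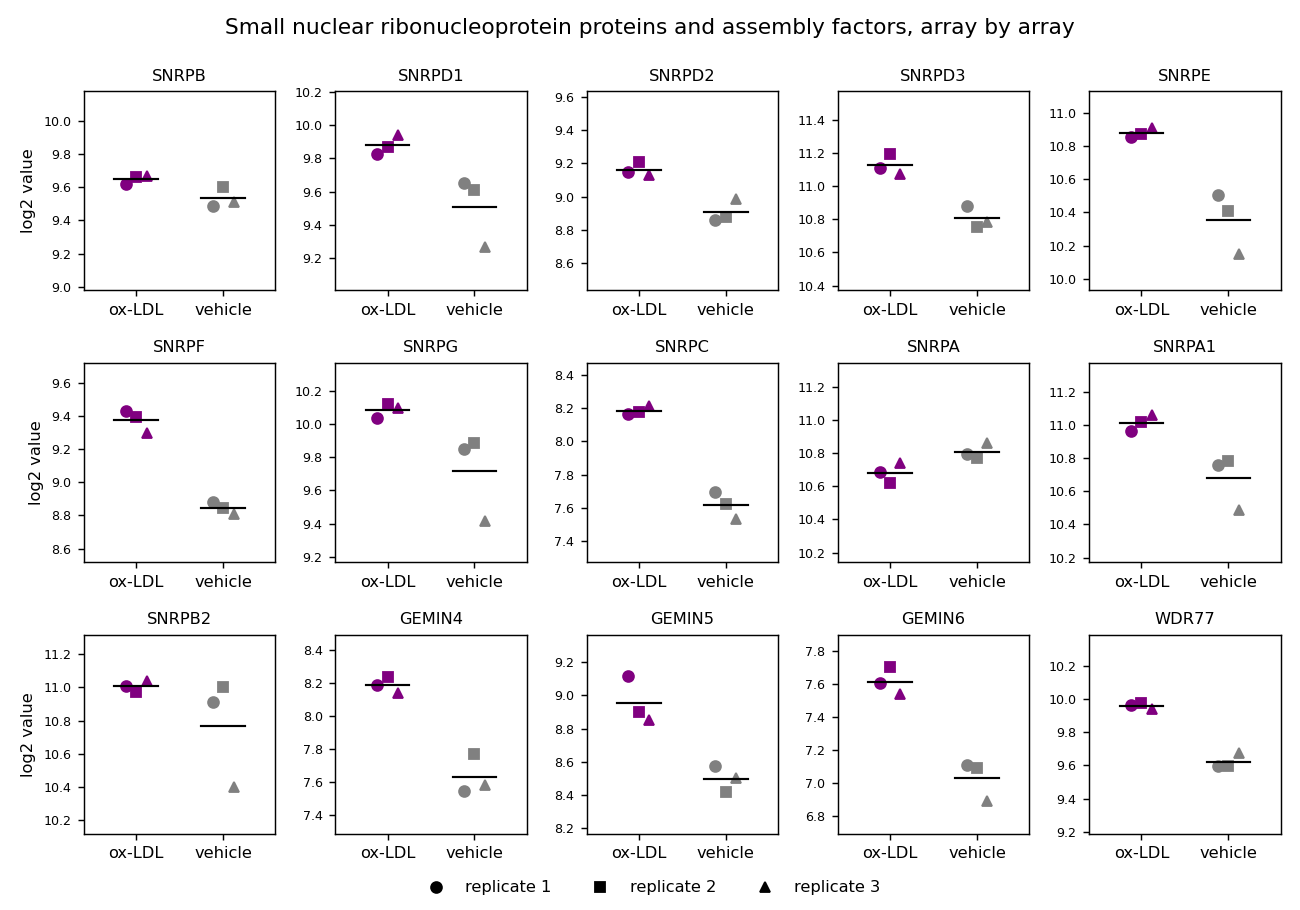
Log2 value (y axis, each panel spanning the same range of 1.2) of 11 snRNP protein genes and 4 assembly factors on the 3 ox-LDL arrays and the 3 vehicle arrays; symbols mark the replicate and lines the group means. The groups are separate in every panel except SNRPB2, SNRPA is the panel with ox-LDL below vehicle, and vehicle replicate 3 is far below the other vehicle arrays for SNRPD1, SNRPG, SNRPA1 and SNRPB2.

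Sm rings are loaded onto snRNA in the cytoplasm by the SMN complex, whose Gemin proteins select the RNA, after Sm proteins have been methylated by PRMT5 and its partner WDR77. Of 15 other assembly genes measured, 4 rose and none fell, a share of 26.7% against the 3.48% of all probe sets called higher. The list was chosen with earlier results of these data known, so this share is a description only. GEMIN6, a structural subunit that resembles Sm proteins, had log2 values of 7.60, 7.70 and 7.54 on the ox-LDL arrays against 7.11, 7.09 and 6.89 on the vehicle arrays, a difference of 0.58 (SE 0.09, limma adjusted p = 0.0149). GEMIN4 had 8.19, 8.23 and 8.14 with ox-LDL and 7.55, 7.77 and 7.58 with vehicle, a difference of 0.55 (SE 0.09, adjusted p = 0.0145). GEMIN5, which recognises the snRNA, had 9.12, 8.90 and 8.85 with ox-LDL and 8.57, 8.42 and 8.50 with vehicle, a difference of 0.46 (SE 0.10, adjusted p = 0.0380). WDR77 had 9.96, 9.98 and 9.94 with ox-LDL and 9.60, 9.60 and 9.67 with vehicle, a difference of 0.34 (SE 0.07, adjusted p = 0.0342). In 8 of the 15 genes, these 4 included, the ox-LDL arrays lay above the vehicle arrays. The shares were 19.1% of all probe sets and 31.5% of those at or above the median level. PRMT5 itself had a difference of 0.11 (SE 0.07, adjusted p = 0.350), and GEMIN2 one of 0.35 (SE 0.08, adjusted p = 0.0578). The 4 genes passed again without vehicle replicate 3, while WDR77 and GEMIN5 did not pass without vehicle replicate 1 (adjusted p = 0.0803 and 0.0672) or vehicle replicate 2 (0.0943 and 0.101), and none of the 15 passed without any 1 ox-LDL array. WDR77 (adjusted p = 0.0608 and 0.0795) and GEMIN5 (0.0555 and 0.0506) also did not pass after quantile or cyclic loess normalization of the deposited values, nor with the replicate block. GEMIN5 did not pass without moderation of the variance either.

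The promoters of 3 snRNP genes are printed because they belong to genes just described and differ in the short motifs they hold: the 250 bases before the start of SNRPC (GRCh38.p14, chr6:34757255-34757504, plus strand), SNRPF (chr12:95858702-95858951, plus strand) and SNRPD2 (chr19:45692317-45692566, minus strand), from RefSeq. Capitals mark CCGGAAG or its complement CTTCCGG, the core bound by ETS factors, and CCAAT or its complement ATTGG, the core bound by NF-Y.
SNRPC: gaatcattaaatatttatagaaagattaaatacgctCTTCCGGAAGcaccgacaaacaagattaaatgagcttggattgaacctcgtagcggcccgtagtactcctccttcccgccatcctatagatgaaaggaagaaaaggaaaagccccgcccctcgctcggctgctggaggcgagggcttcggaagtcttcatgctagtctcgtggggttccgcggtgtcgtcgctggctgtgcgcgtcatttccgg
SNRPF: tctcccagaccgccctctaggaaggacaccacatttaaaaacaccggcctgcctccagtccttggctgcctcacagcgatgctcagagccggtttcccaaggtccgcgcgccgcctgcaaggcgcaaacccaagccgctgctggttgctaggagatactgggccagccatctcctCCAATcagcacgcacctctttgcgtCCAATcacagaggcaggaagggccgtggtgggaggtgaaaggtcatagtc
SNRPD2: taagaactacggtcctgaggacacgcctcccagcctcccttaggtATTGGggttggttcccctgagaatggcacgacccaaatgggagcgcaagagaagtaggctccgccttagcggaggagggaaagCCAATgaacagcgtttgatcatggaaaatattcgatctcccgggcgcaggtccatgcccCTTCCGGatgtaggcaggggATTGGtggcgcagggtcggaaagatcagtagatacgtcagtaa

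In SNRPC both complements of the ETS core overlap in 1 run of 10 bases, in SNRPF the CCAAT core stands 75 and 50 bases before the start with no ETS core, and SNRPD2 holds both kinds. RefSeq promoters (250 bases before to 50 after the start, both strands searched) were found for 62 of the 68 genes. The ETS core was present in 21 of these 62 (33.9%), against 14.3% of the 14250 promoters of genes with a named probe set, and by family in 7 of 10 snRNP, 6 of 8 SF3, 2 of 11 SR, 3 of 22 hnRNP, 2 of 8 PRPF and 1 of 3 U2AF promoters. Of the 3 genes that rose, SNRPC and SNRPE hold it in the window searched and SNRPF does not. Of the snRNP genes that did not pass, SNRPB, SNRPB2, SNRPA1, SNRPD2 and SNRPG hold it there and SNRPA and SNRPD3 do not. The windows of SNRPE and SNRPG are placed on a start 248 and 282 bases inside the annotated gene, so they read the genes' own transcribed sequence and are not printed. Their ETS matches, 241 and 50 bases before that start, lie inside the gene and not before it. Both are included in the counts of 7 and 21. The starts of the other families were not checked in this way. The CCAAT core was in 27 of 62 (43.5%) against 36.4%, and was held by 15 of 22 hnRNP promoters. GGGCGG, read by Sp1, was in 59.7% against 59.5%, the NRF1 motif in 12.9% against 8.84%, and CACGTG, read by MYC and related factors, in 11.3% against 8.69%. The YY1 motif was in 4.84% against 2.79% and the E2F motif in 1.61% against 2.43%. The ETS contrast was the largest among the motifs searched. The 14250 genes were not matched to the members by level. A match to a few letters is a description of the sequence and not of binding.

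The SF3A and SF3B subunits make up the part of U2 that holds the branch point. None of the 9 passed, and 8 differences were above 0 (median 0.12), or 7 after cyclic loess. Of all probe sets 44.9% had a difference above 0, and 57.5% of those at or above the median level. SF3B3 had log2 values of 10.32, 10.27 and 10.21 on the ox-LDL arrays and 10.00, 10.06 and 10.06 on the vehicle arrays, a difference of 0.22 (SE 0.07, limma adjusted p = 0.109). SF3A3 had 10.15, 10.07 and 10.07 with ox-LDL and 9.96, 9.84 and 9.82 with vehicle, also 0.22 (SE 0.07, adjusted p = 0.121). In both, and in SF3B6 (0.17), SF3A2 (0.14) and SF3B5 (0.12), the ox-LDL arrays lay above the vehicle arrays. These are 5 of the 9, against 19.1% of all probe sets and 31.5% of those at or above the median level. SF3B6, which touches the branch point adenosine, had 10.59, 10.57 and 10.61 with ox-LDL and 10.53, 10.42 and 10.31 with vehicle. SF3B1, the subunit that grips the branch region and is mutated in several cancers, had 9.24, 9.27 and 9.23 with ox-LDL and 9.37, 9.15 and 9.03 with vehicle. These groups overlapped, and the difference of 0.06 (SE 0.10, 95% confidence interval -0.17 to 0.30) turned to -0.016 without vehicle replicate 3. SF3A1 had 10.59, 10.59 and 10.53 with ox-LDL and 10.53, 10.53 and 10.46 with vehicle, a difference of 0.06. SF3B4 had a difference of 0.11 and SF3B2 one of -0.09 (-0.026 without vehicle replicate 3), both with overlapping groups.

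The U2AF dimer finds the 3′ splice site. U2AF2, its large subunit, which binds the pyrimidine tract, had log2 values of 10.41, 10.44 and 10.36 on the ox-LDL arrays and 10.24, 10.18 and 10.32 on the vehicle arrays, a difference of 0.16 (SE 0.07, limma adjusted p = 0.224) with groups that did not overlap. U2AF1, the small subunit that reads the AG at the intron's end, had 2 probe sets. The first gave 11.09, 11.11 and 11.04 with ox-LDL and 11.09, 11.05 and 10.96 with vehicle (difference 0.04), and the second gave 10.51, 10.60 and 10.44 with ox-LDL and 10.46, 10.43 and 10.22 with vehicle (0.14). Neither passed and the groups overlapped in both. U2AF1L4, a paralog of the small subunit, went the other way, with 8.39, 8.34 and 8.36 with ox-LDL and 8.42, 8.53 and 8.67 with vehicle, a difference of -0.18 (SE 0.09, adjusted p = 0.237), or -0.11 without vehicle replicate 3.

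The SR protein genes had no common direction. Of the 11, 6 had differences above 0 and 5 below, the median was 0.02, which became 0.05 with equal array medians (8 of 11 above 0), -0.02 once the values were quantile normalized again, -0.04 under cyclic loess and -0.0013 without ox-LDL replicate 2. The largest difference in each direction was that of SRSF7 and of SRSF8. SRSF7, whose product couples splicing to messenger RNA export, had log2 values of 9.33, 9.29 and 9.38 on the ox-LDL arrays and 9.03, 9.04 and 8.62 on the vehicle arrays. The groups were apart, the third vehicle array was the lowest, and the difference of 0.44 (SE 0.12, limma adjusted p = 0.0876) was 0.30 without that array, where it passed (adjusted p = 0.0289). SRSF8, a close relative of SRSF2, had 8.31, 8.25 and 8.18 with ox-LDL and 8.62, 8.53 and 8.54 with vehicle. All ox-LDL arrays lay below all vehicle arrays, at a difference of -0.32 (SE 0.07, adjusted p = 0.0507) just short of the threshold. It passed in 7 of the 14 alternative fits, among them cyclic loess (-0.36, adjusted p = 0.0286) and the fit without vehicle replicate 3 (-0.33, adjusted p = 0.0322).

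SRSF1, the founding member of the family and a known oncogene product, had log2 values of 11.63, 11.58 and 11.56 on the ox-LDL arrays and 11.47, 11.41 and 11.42 on the vehicle arrays. The groups did not overlap. The difference was 0.16 (limma SE 0.07, adjusted p = 0.196), and its 95% confidence interval ran from -0.0020 to 0.32. SRSF3, the smallest SR protein, had 10.33, 10.31 and 10.34 with ox-LDL and 10.49, 10.37 and 10.07 with vehicle. Its difference was 0.02 (SE 0.11) with all arrays and -0.10 without vehicle replicate 3, the array that lay below all others. SRSF6 had 10.26, 10.35 and 10.17 with ox-LDL and 10.39, 10.44 and 10.37 with vehicle, a difference of -0.14 (SE 0.08, adjusted p = 0.296) with every ox-LDL array lower. SRSF5 also had every ox-LDL array lower (difference -0.05) and SRSF10, which is active as a repressor when dephosphorylated, every ox-LDL array higher (0.12). SRSF12 (0.10), SRSF4 (0.02), SRSF11 (-0.0027) and SRSF9 (-0.015) had overlapping groups. A list drawn up around SR proteins held kinases, phosphatases and importins (13 measured, including SRPK1, CLK1, PPP1CA and TNPO3). It had no call in limma, where 1 gene had an unadjusted p under 0.05. Of its differences 7 were above 0, and the median was 0.06. Without vehicle replicate 3 the median was 0.0000 and 1 gene fell, against 5.69% of all probe sets. With all arrays the nearest to the threshold were TNPO1, an importin (0.36, SE 0.14, limma adjusted p = 0.172), and SRPK3 (-0.29, SE 0.13, adjusted p = 0.207). Their differences were 0.19 and -0.15 without vehicle replicate 3.

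Of the 6 families, the hnRNP genes had the largest share of differences above 0 in the main fit, 21 of 23 (22 with equal array medians and 19 after cyclic loess). Of all probe sets 44.9% had a difference above 0, and 57.5% of those at or above the median level. Among probe sets above the negative controls the counts were 19 of 21 for hnRNP and 10 of 11 for snRNP genes. In 12 of the 23 all ox-LDL arrays lay above all vehicle arrays (against 19.1% of all probe sets and 31.5% of those at or above the median level), and in none did they all lie below. No hnRNP probe set passed, and the family median was only 0.13. The smallest p was that of HNRNPAB, which binds RNA and single-stranded DNA. It had log2 values of 11.04, 11.06 and 11.01 on the ox-LDL arrays and 10.82, 10.80 and 10.77 on the vehicle arrays, 2 narrow and separate ranges with a difference of 0.24 (SE 0.07, 95% confidence interval 0.09 to 0.40, limma adjusted p = 0.0778). HNRNPR had 10.46, 10.47 and 10.53 with ox-LDL and 10.33, 10.26 and 10.09 with vehicle, a difference of 0.26 (SE 0.09, adjusted p = 0.123). HNRNPL, which binds CA repeats, had 9.71, 9.76 and 9.69 with ox-LDL and 9.53, 9.55 and 9.42 with vehicle, a difference of 0.22 (SE 0.07, adjusted p = 0.125).

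HNRNPA1, HNRNPA2B1 and HNRNPC are abundant nuclear RNA-binding proteins. HNRNPA1 had log2 values of 12.58, 12.58 and 12.55 on the ox-LDL arrays and 12.52, 12.56 and 12.44 on the vehicle arrays, overlapping groups with a difference of 0.07 (SE 0.07), or 0.03 without vehicle replicate 3. HNRNPA2B1 had 11.34, 11.33 and 11.29 with ox-LDL and 11.17, 11.19 and 11.06 with vehicle, a difference of 0.18 (SE 0.07, limma adjusted p = 0.171) with separate groups. HNRNPC, which binds uridine tracts, had 12.02, 11.96 and 11.96 with ox-LDL and 11.96, 11.89 and 11.83 with vehicle, a difference of 0.09 (SE 0.07), or 0.06 without vehicle replicate 3, with groups that did not overlap by a narrow margin. For HNRNPA1, differences above 0.23 or below -0.10 lie outside the 95% confidence interval.

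Among the other hnRNP genes, HNRNPH3 (0.28), HNRNPD (0.28), HNRNPUL2 (0.20), HNRNPU (0.17), HNRNPF (0.15), HNRNPM (0.12) and HNRNPA0 (0.04) also had separate groups, and HNRNPH1 (0.13), HNRNPUL2-BSCL2 (0.14), HNRNPH2 (0.11, or 0.04 without vehicle replicate 3) and HNRNPUL1 (0.03) overlapping ones. HNRNPH3 and HNRNPD had 11.20 and 10.88 on vehicle replicate 3, and their differences were both 0.15 without that array. HNRNPDL had a difference of -0.0095. HNRNPLL, a paralog of HNRNPL, had 6.91, 6.96 and 6.90 with ox-LDL and 7.20, 6.99 and 6.45 with vehicle, so the difference of 0.04 (SE 0.18) was -0.17 without vehicle replicate 3. HNRNPA1L2, a retrocopy of HNRNPA1, had 6.89, 6.80 and 6.81 with ox-LDL and 7.36, 7.40 and 6.49 with vehicle. Its difference of -0.25 (SE 0.24) did not pass with all arrays and was -0.55 without vehicle replicate 3, where it did (adjusted p = 0.00623). HNRNPCL1 (0.11), HNRNPCL2 (0.09) and HNRNPCL4 (0.17) are near-identical copies of one another, HNRNPA1 and HNRNPA1L2 share most of their sequence, and HNRNPUL2-BSCL2 overlaps HNRNPUL2, so these values are uncertain. HNRNPCL2 and HNRNPCL4 had both group means under 5.21, within the range of the negative control probes.

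The PRPF genes are named after yeast mutants in pre-messenger RNA processing and act at several steps. None of the 10 passed, 8 differences were above 0 (against 44.9% of all probe sets and 57.5% of those at or above the median level) and 5 had separate groups with ox-LDL above (against 19.1% and 31.5%). The family median of 0.18 was 0.05 without vehicle replicate 3, and 0.05 with array weights. Without that array 7 of the 10 differences were above 0, against 47.9% of all probe sets. PRPF4 and PRPF31 belong to the U4/U6 particle. PRPF4 had log2 values of 10.05, 10.10 and 9.99 on the ox-LDL arrays and 9.78, 9.80 and 9.88 on the vehicle arrays, a difference of 0.23 (SE 0.07, limma adjusted p = 0.111), or 0.26 without vehicle replicate 3, where it passed (adjusted p = 0.0473). PRPF31 had 9.06, 8.95 and 8.98 with ox-LDL and 8.65, 8.87 and 8.74 with vehicle, a difference of 0.24 (SE 0.08, adjusted p = 0.136). PRPF3, of the same particle, had a difference of -0.14 (SE 0.09) with overlapping groups, or -0.22 without vehicle replicate 3.

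PRPF38A, needed for the activation of the spliceosome, had log2 values of 9.87, 9.88 and 9.83 on the ox-LDL arrays and 9.66, 9.68 and 9.48 on the vehicle arrays, a difference of 0.25 (SE 0.08, limma adjusted p = 0.117). PRPF19, a ubiquitin ligase of the catalytic spliceosome, had 9.47, 9.49 and 9.46 with ox-LDL and 9.36, 9.46 and 9.14 with vehicle, a difference of 0.16 (SE 0.10, adjusted p = 0.331) that was 0.07 without vehicle replicate 3. PRPF18, which acts in the second catalytic step, had 8.10, 8.27 and 8.13 with ox-LDL and 8.33, 8.15 and 7.44 with vehicle, so its difference of 0.20 (SE 0.22) was -0.071 without that array. PRPF39 and PRPF40B, both relatives of yeast U1 proteins, had differences of 0.30 (SE 0.14) and -0.17 (SE 0.11), and PRPF38B and PRPF6 ones of 0.15 and 0.04. Without vehicle replicate 3 these were 0.14 for PRPF39, -0.099 for PRPF40B, 0.03 for PRPF38B and 0.01 for PRPF6.

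**Figure D3:**
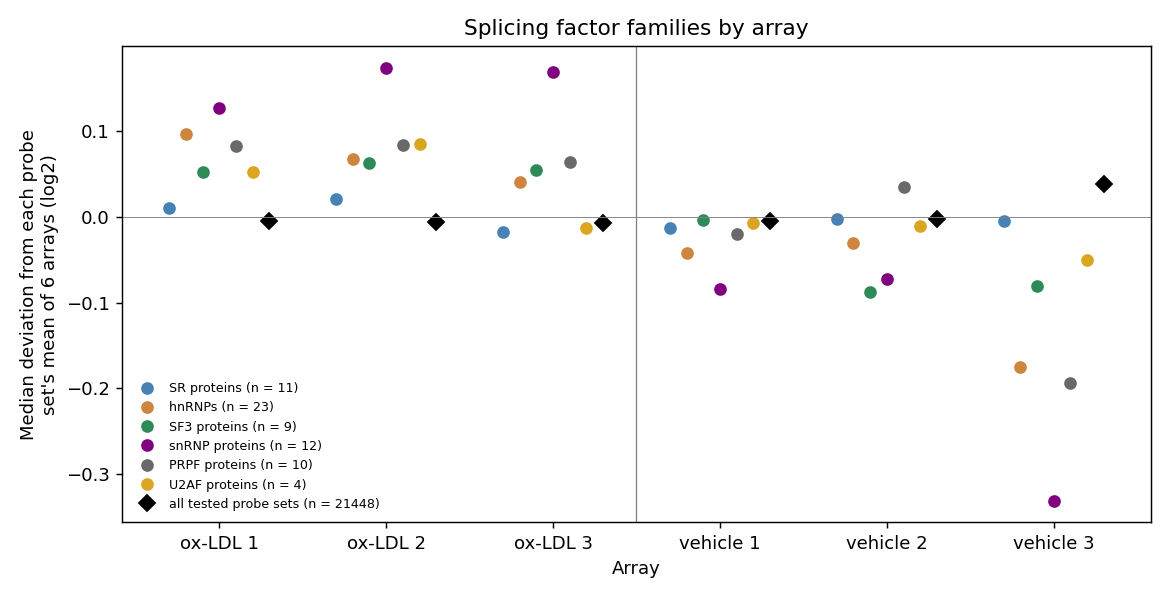
Median, over the probe sets of each family, of the deviation from a probe set's own mean of the 6 arrays (y axis, log2 scale) on each array (x axis); diamonds show all 21448 tested probe sets. The snRNP proteins lie at 0.13 to 0.17 on the ox-LDL arrays and at -0.08, -0.07 and -0.33 on vehicle arrays 1, 2 and 3, while the SR proteins stay within 0.02 of 0 on all 6 arrays.

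The third vehicle array was the lowest of the 6 arrays in 39 of the 69 probe sets and the highest in 6. These counts were not made for all tested probe sets. The deviation of the snRNP family was -0.33 on that array, against -0.08 and -0.07 on the other 2 vehicle arrays and 0.13 to 0.17 on the ox-LDL arrays, and that of the hnRNPs was -0.18, against -0.04 and -0.03 on the other vehicle arrays and 0.04 to 0.10 on the ox-LDL arrays. Over all tested probe sets the median deviation was 0.04 on vehicle replicate 3 and between -0.0066 and -0.0027 on the other arrays. Without vehicle replicate 3, 53 of the 69 differences were above 0 (76.8%, against 47.9% of all tested probe sets) with a median of 0.11, and 5 probe sets changed sign. In 21 of the 69 the difference was over 1.5 times larger with this array than without it, and in 7 it was over 1.5 times smaller. All tested probe sets were not counted in this way. The count of members that rose was 7 without vehicle replicate 3 (10.1%, against 6.76% of all probe sets), namely SNRPC, SNRPF, SNRPE, SNRPD3, SNRPD2, SRSF7 and PRPF4, and 2 fell, SRSF8 and HNRNPA1L2 (5.69% of all probe sets). The part of this array's GC-rich background in these results was not tested.

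**Figure D4:**
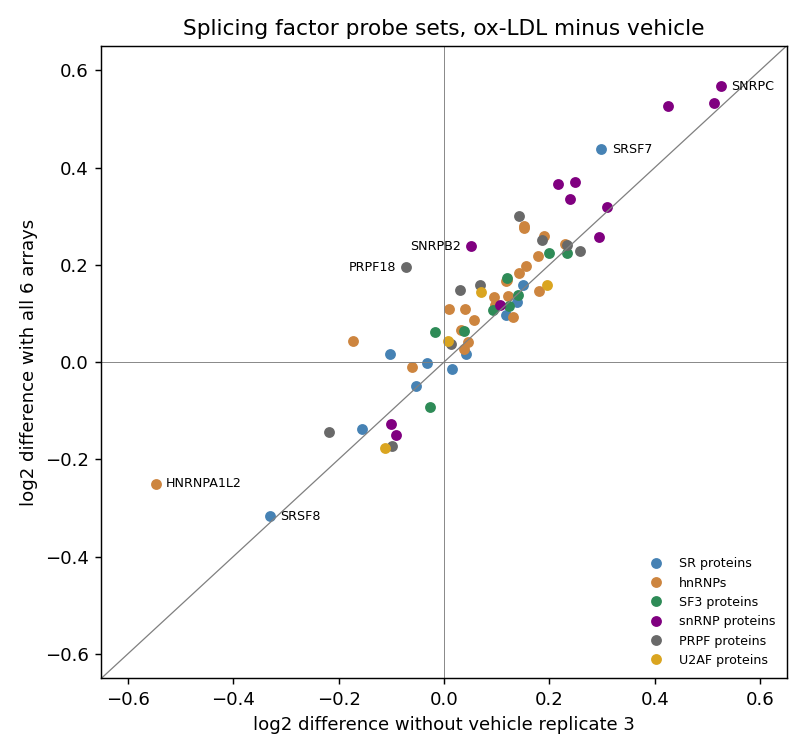
Difference between ox-LDL and vehicle for the 69 probe sets with all 6 arrays (y axis, log2 scale) against the same difference without vehicle replicate 3 (x axis, log2 scale), coloured by family; the diagonal marks equal values. SNRPC and SRSF8 lie near the diagonal, at 0.57 and 0.53 and at -0.32 and -0.33, while PRPF18, SNRPB2 and HNRNPA1L2 lie far from it.

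The count of calls also depended on how the spread of each probe set was estimated. The median SD of the splicing factor probe sets was 0.04 over the ox-LDL arrays and 0.07 over the vehicle arrays. It was not compared with that of other probe sets. When the expected variance was allowed to follow the level (limma's intensity trend with a robust fit), 19 of 69 rose (27.5%, against 7.50% of all tested probe sets) and SRSF8 fell (4.85% of all). The 19 were SNRPC, SNRPF, SNRPE, SNRPD3, SNRPD2, SNRPA1, SNRPD1, HNRNPAB, HNRNPR, HNRNPL, HNRNPA2B1, HNRNPU, HNRNPF, SF3B3, SF3A3, PRPF4, PRPF38A, SRSF7 and SRSF1. With array weights, which gave vehicle replicate 3 a weight of 0.15 against 0.85 to 2.27 for the other arrays, 14 rose (20.3%, against 9.98% of all) and 2 fell, SRSF8 and HNRNPA1L2 (8.49% of all). Of the 69 members, 61 lie at or above the median level. The share of calls among all probe sets at that level was not counted for these fits or for the fit without vehicle replicate 3. The part of level in these shares was therefore not tested.

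Of the other splicing genes, 138 were measured in 7 lists, of which 6 rose (4.35%, against 3.48% of all probe sets) and 1 fell (0.72%, against 3.29%), with 100 differences above 0 (72.5%, against 44.9% of all probe sets and 57.5% of those at or above the median level) and a median of 0.11. The share that rose is near the background. Besides the 4 assembly genes, SNRNP25, a protein of the minor U11/U12 particle that removes a rare class of introns, rose among 33 other snRNP, LSm and U2-associated genes. It had log2 values of 9.33, 9.33 and 9.39 on the ox-LDL arrays and 8.77, 8.92 and 8.98 on the vehicle arrays, a difference of 0.46 (SE 0.08, limma adjusted p = 0.0232). SNRNP70, the third U1-specific protein beside SNRPC and SNRPA, had 9.86, 9.89 and 9.90 with ox-LDL and 9.80, 9.94 and 9.95 with vehicle, a difference of -0.012 (SE 0.07). Among 23 genes of the catalytic steps and the complex around PRPF19, the prolyl isomerase PPIL1 rose by 0.34 (SE 0.07, adjusted p = 0.0378) and SYF2 fell by 0.40 (SE 0.08, adjusted p = 0.0411). None of SNRNP25, PPIL1 and SYF2 passed without any 1 ox-LDL array, without vehicle replicate 1 or 2, or with the replicate block. SNRNP25 (adjusted p = 0.0535 and 0.0509) and PPIL1 (0.0627 and 0.0816) also did not pass after quantile or cyclic loess normalization. SYF2 did not pass with equal array medians (adjusted p = 0.0654) or without moderation of the variance.

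No call was made among 14 other SR-like genes, 28 other splicing regulators and 12 genes of the exon junction complex and nonsense-mediated decay (limma; 3, 3 and 4 of them had an unadjusted p under 0.05), whose medians were 0.14, 0.10 and 0.14, and 0.15, 0.06 and 0.07 without vehicle replicate 3. The smallest p in these lists were those of PNN, an exon junction partner of SR proteins (0.21, SE 0.07, adjusted p = 0.120), and SRRM1 (0.31, SE 0.11, adjusted p = 0.135), of SYNCRIP (0.29, SE 0.10, adjusted p = 0.128) and RBM39 (-0.26, SE 0.10, adjusted p = 0.173), and of UPF2, a core decay factor (0.60, SE 0.17, adjusted p = 0.0876), and EIF4A3, the helicase of the junction complex (0.32, SE 0.11, adjusted p = 0.130). Without vehicle replicate 3 the differences of UPF2 and SRRM1 were 0.39 and 0.19. RefSeq names pseudogenes after 31 of the 68 genes, among them 20 for SNRPC, 11 for SNRPE, 4 for SNRPF, 20 for SNRPG and 75 for HNRNPA1. The files do not give the probes' sequences, so values of genes with such copies may include their transcripts.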

How the data were processed

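RNA of T24 cells was hybridised to 6 single-colour arrays, made from 500 ng of total RNA with an Affymetrix WT PLUS kit, per the labels' protocols. The authors deposited log2 values per probe set, made with RMA, per the submitters' processing notes; its version, its settings and the genome build were not given in the sources used here. RMA scales arrays to one another, though the deposited medians still differed between arrays, so the RNA content of a cell cannot be read from these values; changes of dim probe sets are understated. Sequencing depth has no meaning for arrays.

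Of 24350 probe sets, 2902 controls were left out of the tests. Platform annotation named 17709 of the remaining 21448, with 1 symbol each; the others are unnamed here. The members and lists were chosen with earlier results of these data known. All 6 arrays, grouped by title, entered 1 limma model (lmFit and eBayes, limma 3.58.1, R 4.3.3), with two-sided p-values adjusted by Benjamini-Hochberg over 21448 probe sets and intervals at 95%. Fold changes are 2 to the power of the difference. Lists are described by counts, without a test. All members are named; values per array are given for members that passed, the 3 with the smallest p in each family and a fixed set of genes. The procedure was tested on simulated data. Alternatives were 3 normalizations, a filter on dim probe sets, a variance trend, array weights, the replicate block, no moderation, the design text's selection (p at or below 0.001 and at least 1.5-fold) and leaving out each array. Figures were drawn with matplotlib 3.10.9.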

Additional observations from a re-analysis of the deposited data

How the results depend on the processing

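The count of members that rose was 3 with all arrays, 4 with equal array medians, 3 with a second quantile normalization or cyclic loess, 2 with the replicate block, 5 among probe sets above the negative controls, 19 with an intensity trend and robust fit, 14 with array weights, 0 under the design text's selection, and 0 to 7 with 1 array left out. The count that fell was 0 with all arrays, 1 with a second quantile normalization, cyclic loess, the dim-probe filter, the trend or no moderation (SRSF8 each time), 2 with array weights, and 0 to 2 with 1 array left out. By family, the trend gave 2 SR, 6 hnRNP, 2 SF3, 7 snRNP and 2 PRPF rises and array weights gave 1, 2, 2, 7 and 1 with 1 U2AF rise and 1 hnRNP fall. No moderation and the dim-probe filter gave 1 hnRNP rise each, and the design text's selection 0 snRNP rises. With 1 array left out, snRNP rises ran from 0 to 5, SR rises and falls, hnRNP falls and PRPF rises each from 0 to 1. Of the other splicing genes, 6 rose and 1 fell with all arrays, 3 rose with a second quantile normalization or cyclic loess, 17 with the trend (2 fell), 18 with array weights (5 fell), 2 with the replicate block (0 fell) and 0 with the design text's selection (0 fell), 0 fell with equal medians, 2 fell with the dim-probe filter, and 0 to 11 rose and 0 to 4 fell with 1 array left out. The cause of these moves was not tested.

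Signs turned only for members that did not pass: with equal medians SRSF9 (0.016), SRSF11 (0.028) and HNRNPDL (0.021); with a second quantile normalization SRSF4 (-0.0071), SRSF3 (-0.020) and PRPF6 (-0.014); after cyclic loess SRSF4 (-0.042), SRSF3 (-0.044), HNRNPA0 (-0.022), HNRNPUL1 (-0.025), SF3B1 (-0.0015), PRPF6 (-0.025) and U2AF1 (-0.0084); and with array weights SRSF9 (0.016), SRSF3 (-0.059) and HNRNPLL (-0.096). With 1 array left out, differences ran from -0.013 to 0.042 for SRSF4, -0.054 to 0.017 for SRSF9, -0.10 to 0.11 for SRSF3, -0.032 to 0.029 for SRSF11, -0.0029 to 0.33 for HNRNPCL4, -0.17 to 0.20 for HNRNPLL, -0.060 to 0.017 for HNRNPDL, -0.016 to 0.15 for SF3B1 and -0.071 to 0.37 for PRPF18. Same-numbered arrays did not deviate together (correlations -0.0061, 0.030 and 0.020). With 3 arrays a group and vehicle replicate 3 far from the rest, these values cannot decide whether the numbers pair the samples. Under the replicate block 2 of the 3 members passed, SNRPC and SNRPF. Over all probe sets it gave 244 rises and 306 falls, against 746 and 705 without it.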
